A study of Mus musculus with 24 samples.

Results

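The regenerating (Reg) genes encode small secreted C-type lectins, and 5 of them, Reg1, Reg3a, Reg3b, Reg3g and Reg4, were followed through the terminal ileum of 24 mice. The members were chosen by gene symbol: each had 1 probe set of its own on the array and none that it shared with another gene, so that all 5 were among the 18820 genes tested. Ileal RNA of each mouse was measured on 1 Affymetrix Mouse Gene 1.1 ST array, with 4 mice in each of 6 groups. These were germ-free mice given short-chain β2→1-fructan, long-chain β2→1-fructan or water, and conventional mice given the same 3 treatments. All were male C57BL/6OlaHsd mice of 8 weeks on the low-fat D12450B diet, and the fibers were given by oral gavage at 10 mg per day for 5 days. The conventional mice were specified pathogen-free animals of a commercial supplier, whereas the germ-free mice came from a university breeding colony, so that colonization and source of the animals cannot be told apart. For germ-free mice the short-chain fructan had been filtered and the long-chain fructan irradiated, which broke down part of its longest chains, so that the fibers given to germ-free and conventional mice were not handled alike.

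Reg3b and Reg3g are products of enterocytes and Paneth cells that are released into the gut lumen. Reg3g binds the peptidoglycan of Gram-positive bacteria and kills them, while Reg3b is known for its part in defence against several Gram-negative pathogens. In the small intestine these genes are known to depend on bacterial sensing through Myd88 and on interleukin-22, a cytokine of lymphoid cells that acts on the epithelium through Stat3. Reg3a belongs to the same subfamily, and its human namesake is a bactericidal lectin of the gut. Reg4 is found in secretory cells of the crypts, and Reg1 was first described in the pancreas.

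The values are log2 expression values after RMA, the robust multiarray average. The array medians lay between 4.92 and 4.98 in the 24 mice, and replicate arrays of a group correlated across probe sets with r from 0.990 to 0.995. Levels of different probe sets cannot be compared with each other, and each member was therefore compared only with itself. Calls followed the thresholds of the study's methods, p under 0.01 without adjustment together with a change of more than 1.3-fold, and the Benjamini-Hochberg adjusted p over all 18820 genes is given beside it. Nothing in the files tells how far probes of one Reg gene also bind the transcripts of its relatives.

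Germ-free ileum differed from conventional ileum in 4 of the 5 genes when the 3 treatments were averaged, and the members did not move in one direction. The log2 fold change was -1.23 for Reg3g (standard error 0.062, 2.34-fold lower), -0.86 for Reg3b (0.062, 1.82-fold lower) and -0.47 for Reg4 (0.096, 1.38-fold lower). Reg3a was 2.57-fold higher, at 1.36 (standard error 0.11). Over all genes 8.2% were called in this comparison. For Reg1 the change was 0.11 and was not called (adjusted p = 0.305 in limma). Called by treatment, the members numbered 4 of 5 with short-chain β2→1-fructan, where 8.76% of all genes were called, 3 of 5 with long-chain β2→1-fructan, where 9.69% were called, and 3 of 5 with water, where 8.74% were called. The same members passed at an adjusted p under 0.05. Because the RNA came from whole pieces of ileum, fewer cells of a type and less RNA per cell cannot be told apart.

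Reg3g (probe set 10545569, chromosome 6 of GRCm38 from 78466269 to 78468874) was at 11.31, 10.72, 11.14 and 11.15 in germ-free mice given short-chain β2→1-fructan, against 12.19, 12.49, 12.28 and 12.56 in conventional mice given the same fiber. With long-chain β2→1-fructan it was at 10.99, 11.21, 11.13 and 10.97 in germ-free mice, against 12.46, 12.25, 12.19 and 12.38 in conventional mice. On water the values were 10.91, 11.40, 11.07 and 11.07 in germ-free mice and 12.15, 12.41, 12.17 and 12.26 in conventional mice. All 12 germ-free mice were below all 12 conventional mice, and the highest germ-free value, 11.40, was still under the lowest conventional one, 12.15. How many of all genes separated in this way was not counted, for this gene or those below. In the average of the treatments 34% of all genes had an adjusted p under 0.05 in limma. Reg3g was 2.46-fold lower with short-chain fructan (adjusted p = 3.01e-09 in limma), 2.37-fold lower with long-chain fructan (adjusted p = 5.17e-09) and 2.20-fold lower on water (adjusted p = 3.36e-08). Each of these 3 comparisons had an exact two-sided permutation p of 0.029, the smallest that 4 mice against 4 can give. By its p in the average of the treatments, Reg3g stood at place 20 of the 18820 genes.

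Reg3b (probe set 10539179, chromosome 6 of GRCm38 from 78370885 to 78373466) followed the same pattern. Its values were 11.82, 11.40, 12.03 and 11.84 in germ-free mice given short-chain β2→1-fructan, against 12.56, 12.75, 12.53 and 12.83 in conventional mice given it. With long-chain β2→1-fructan they were 11.65, 11.90, 11.82 and 11.67 in germ-free mice, against 12.67, 12.61, 12.56 and 12.60 in conventional mice. On water they were 11.32, 11.93, 11.68 and 11.68 in germ-free mice, against 12.40, 12.61, 12.52 and 12.48 in conventional mice. Here too no germ-free mouse reached any conventional mouse. Reg3b was 1.86-fold lower with short-chain fructan (adjusted p = 1.24e-06 in limma), 1.80-fold lower with long-chain fructan (adjusted p = 2.61e-06) and 1.80-fold lower on water (adjusted p = 3.32e-06), with an exact permutation p of 0.029 each time. For both genes the germ-free groups took the lowest 3 places among the 6 group means. Among the germ-free groups, and among the conventional groups, the mice of groups next to each other in that order overlapped.

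Reg3a (probe set 10539186, chromosome 6 of GRCm38 from 78380709 to 78383839) lies between those genes in the same cluster and was shifted the other way. In germ-free mice given short-chain β2→1-fructan it was at 8.53, 8.67, 9.07 and 8.52, against 6.07, 7.38, 7.10 and 6.96 in conventional mice given it. With long-chain β2→1-fructan it was at 8.48, 8.28, 7.89 and 8.40 in germ-free mice, against 7.57, 7.10, 7.22 and 7.21 in conventional mice. On water it was at 8.71, 9.05, 8.32 and 8.44 in germ-free mice, against 7.32, 7.33, 7.25 and 7.51 in conventional mice. All 12 germ-free mice were above all 12 conventional mice, and how many other genes did so was not counted. Reg3a was 3.54-fold higher with short-chain fructan (adjusted p = 1.83e-07 in limma), 1.98-fold higher with long-chain fructan (adjusted p = 0.000667) and 2.42-fold higher on water (adjusted p = 4e-05), each with an exact permutation p of 0.029. Of the 18820 genes, 18780 had a lower fold change than Reg3a in the average of the treatments. The lowest value of the gene, 6.07, was that of conventional short-chain replicate 1, and the 3 conventional groups overlapped one another.

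**Figure D1:**
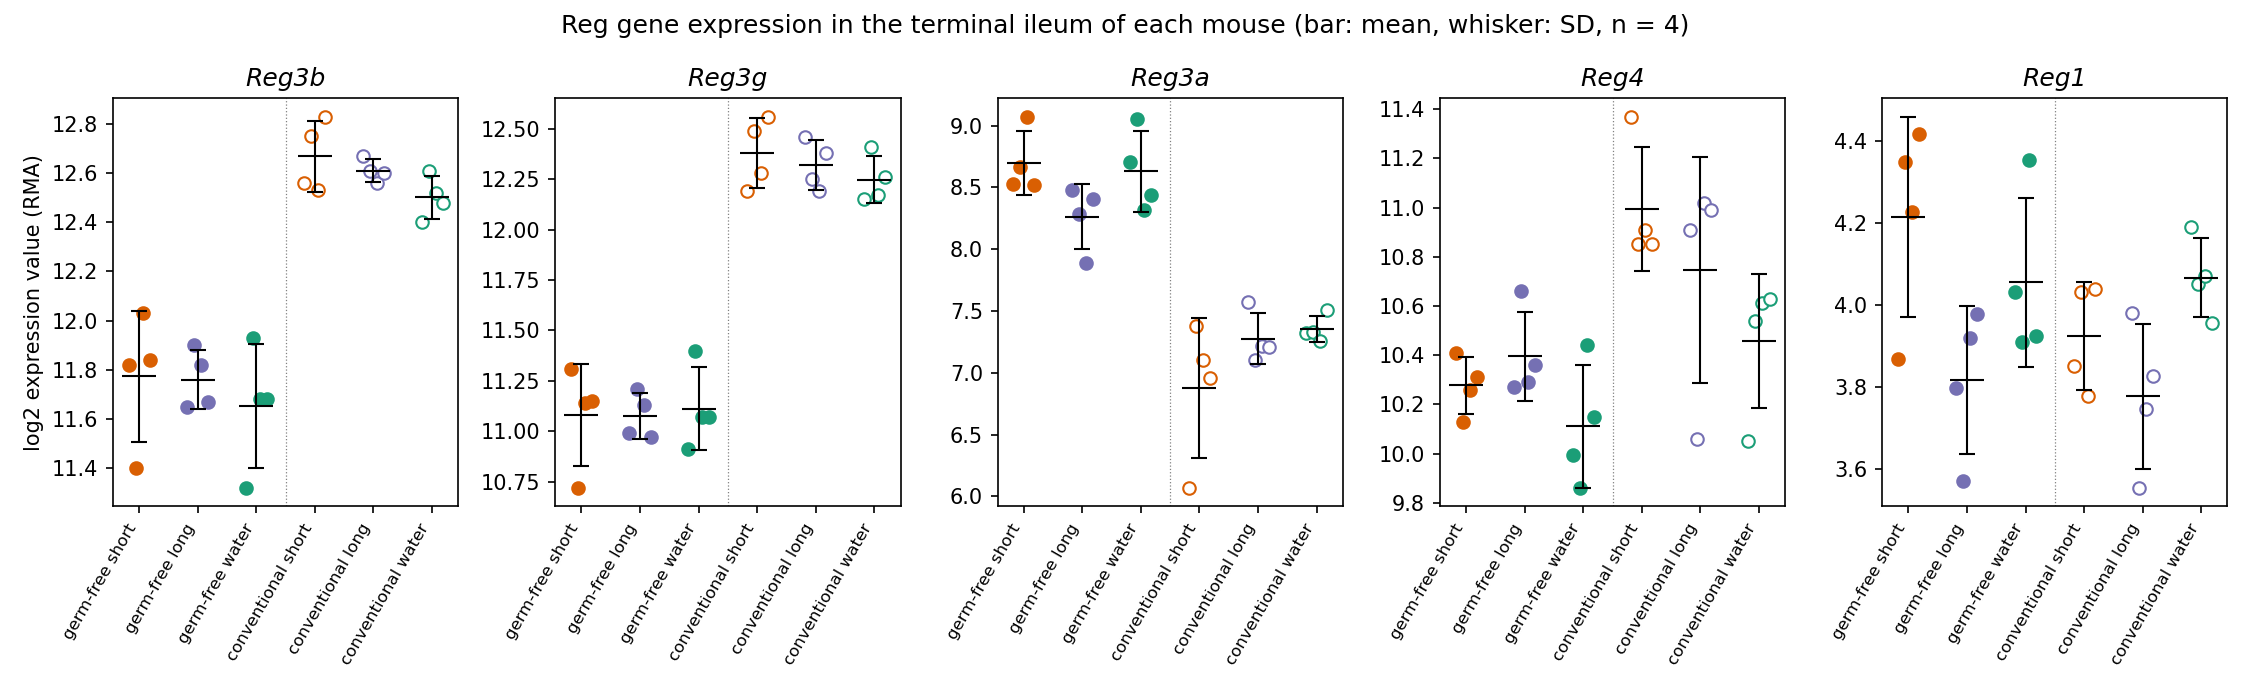
Log2 expression value (RMA) of the 5 Reg genes in each mouse, by group, with germ-free groups as filled points left of the dotted line and conventional groups as open points right of it (horizontal line, mean, whisker, SD, n = 4). Reg3b and Reg3g were lower and Reg3a was higher in all 12 germ-free mice than in all 12 conventional mice, while for Reg4 and Reg1 the germ-free and conventional mice overlapped when taken over all treatments. The share of all genes that separated in this way was not counted. Each panel has its own scale, which does not start at 0.

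**Figure D2:**
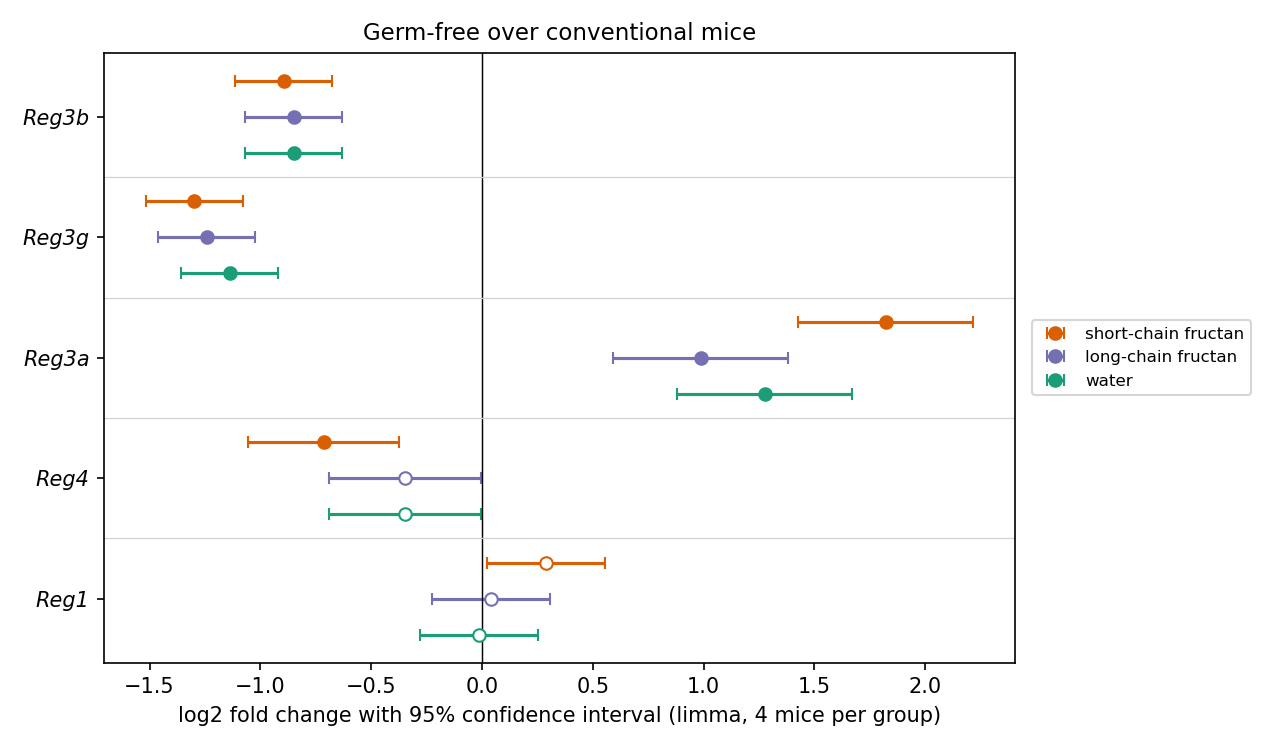
Log2 fold change of germ-free over conventional mice within each treatment, with its 95% confidence interval from limma (4 mice per group). Filled points passed the thresholds for p and fold change, as Reg3b, Reg3g and Reg3a did under all 3 treatments and Reg4 with short-chain β2→1-fructan.

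Markers of other cell types of the tissue were called in the same contrast, where 8.2% of all genes were called, and their part in the Reg values was not tested. In this paragraph counts of lower or higher markers are counts of called ones. The brightest markers of a list weigh most in its sum. Of 6 measured Paneth cell markers all had a negative change and 5 were called lower in germ-free mice, among them Mptx1 (log2 fold change -1.58), Nupr1 (-0.71), Mmp7 (-0.68) and Habp2 (-0.65). The log2 of the summed level of the 6 was 13.37 to 13.66 in germ-free and 13.76 to 13.90 in conventional mice. Of 4 lymphocyte markers 2 were lower, Cd3e (-2.10) and Cd79a (-0.77), with sums of 5.74 to 7.10 in germ-free and 7.18 to 7.87 in conventional mice. None of 8 general enterocyte markers was called, although Sis and Fabp2 were at 0.35 and 0.37. Of these 8, 4 had an adjusted p under 0.05 in limma, where 34% of all genes did. The sums were 14.80 to 15.04 in germ-free and 14.70 to 14.88 in conventional mice. Of 6 ileal enterocyte markers 1 was lower, Fgf15 (-3.57), 4 had a negative change and 5 had an adjusted p under 0.05 in limma. Their sums were 13.74 to 14.04 in germ-free and 13.93 to 14.11 in conventional mice. Of 6 markers of proximal enterocytes 2 were higher, Fabp1 (2.08) and Apoa4 (0.76), with sums of 9.97 to 12.15 in germ-free and 9.69 to 10.41 in conventional mice. Of 4 smooth muscle markers 3 were called lower and all 4 had a negative change, with sums of 11.95 to 12.81 in germ-free and 12.87 to 13.11 in conventional mice. All 3 adipocyte markers were higher, with sums of 6.76 to 9.04 in germ-free and 6.16 to 7.65 in conventional mice.

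The Reg3 genes share a locus, and the bases before their starts are shown because Reg3b and Reg3g moved together while their neighbour Reg3a moved against them. Reg1, Reg2, Reg3a, Reg3b, Reg3d and Reg3g lie within 97990 bases of chromosome 6, and Reg4 lies apart on chromosome 3. Windows of 250 bases before an annotated start of each gene, from RefSeq on GRCm38.p6, were searched on both strands for TTCNNNGAA, the letters bound by STAT proteins, and for TATAAA, the TATA box. For Reg4 the window is chr3:98221906-98222155 on the plus strand and runs past the gene start given below, 98222138, so its last bases lie within the gene. Capitals mark a match to either, and no match of one overlapped a match of the other. The windows are chr6:78370635-78370884 on the plus strand for Reg3b, chr6:78468875-78469124 on the minus strand for Reg3g and chr6:78380459-78380708 on the plus strand for Reg3a, each written 5′ to 3′.
Reg3b: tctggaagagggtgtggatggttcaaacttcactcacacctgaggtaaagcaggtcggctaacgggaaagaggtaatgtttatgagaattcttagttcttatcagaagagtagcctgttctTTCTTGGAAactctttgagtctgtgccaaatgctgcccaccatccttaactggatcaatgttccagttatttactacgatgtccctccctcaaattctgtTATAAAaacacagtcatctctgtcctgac
Reg3g: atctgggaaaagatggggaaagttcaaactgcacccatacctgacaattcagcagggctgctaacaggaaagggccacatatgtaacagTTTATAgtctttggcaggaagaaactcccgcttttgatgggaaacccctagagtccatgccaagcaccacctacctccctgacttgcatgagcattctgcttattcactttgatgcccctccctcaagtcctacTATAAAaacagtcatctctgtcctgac
Reg3a: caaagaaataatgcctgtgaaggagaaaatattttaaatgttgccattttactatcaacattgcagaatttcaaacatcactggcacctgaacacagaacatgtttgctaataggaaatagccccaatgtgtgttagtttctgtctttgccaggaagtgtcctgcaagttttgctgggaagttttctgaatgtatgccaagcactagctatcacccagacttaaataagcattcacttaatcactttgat
Counted back from the start, Reg3b held TTCTTGGAA at -129 to -121 and TATAAA at -29 to -24. Reg3g held TATAAA at -27 to -22 and the reverse complement of these letters at -161 to -156, and it held no TTCNNNGAA. Neither set of letters was in the window of Reg3a. Of the other Reg genes, Reg3d, which was not called, held TTCCCAGAA at -238 to -230, Reg1 and Reg2 held TATAAA at -30 to -25 and Reg4 held neither. Among all 32851 promoter windows of this length, 7.02% held TTCNNNGAA and 12.4% held TATAAA. Whether these letters bear on the changes in expression was not tested.

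Aligned with each other, with free ends, the windows of Reg3b and Reg3g were the same in 69.1% of 256 columns and shared an unbroken run of 20 bases that ends at the start site. Those of Reg3a and Reg3g were the same in 67.8% of 211 columns, with a longest run of 11 bases that begins at -57 in Reg3a and at -105 in Reg3g. The annotated start of Reg3a thus lies at another place relative to the shared sequence, and its window does not cover the same stretch. Reg3a and Reg3b were the same in 61.4% of 215 columns. Reg1 and Reg4, by comparison, were the same in 53.6% of 207 columns.

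Reg4 (probe set 10494636, chromosome 3 of GRCm38 from 98222138 to 98236748), a lectin of crypt secretory cells, had a negative change in germ-free mice under every treatment and was called under short-chain β2→1-fructan. With this fiber it was at 10.41, 10.13, 10.26 and 10.31 in germ-free mice, against 11.37, 10.85, 10.91 and 10.85 in conventional mice. With long-chain β2→1-fructan it was at 10.27, 10.66, 10.29 and 10.36 in germ-free mice, against 10.91, 10.06, 11.02 and 10.99 in conventional mice. On water it was at 9.99, 9.86, 10.44 and 10.15 in germ-free mice, against 10.05, 10.54, 10.61 and 10.63 in conventional mice. Only with short-chain fructan did the groups not overlap, and in each of the other comparisons 1 conventional mouse lay among or below the germ-free mice. The log2 fold changes were -0.71 with short-chain fructan (adjusted p = 0.00373 in limma, exact permutation p = 0.029), -0.35 with long-chain fructan (adjusted p = 0.171, exact permutation p = 0.17) and -0.35 on water (adjusted p = 0.184, exact permutation p = 0.11). Without the low conventional mouse, replicate 2 of the long-chain group or replicate 1 of the water group, Reg4 was called in those comparisons too, at -0.58 with long-chain fructan and at -0.48 on water. By group mean Reg4 was lowest in the 3 germ-free groups, but no group was separated from the next in the order.

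Markers of secretory cells were read beside Reg4, in the average of the treatments, where 8.2% of all genes were called. Of 7 goblet cell markers 1 was called lower in germ-free mice, Spink4 (log2 fold change -0.55), and 4 had a negative change. The log2 sums were 14.20 to 14.33 in germ-free and 14.32 to 14.51 in conventional mice. Of 11 enteroendocrine markers 1 was called lower, the somatostatin gene Sst (-0.62), 10 had a negative change and 7 had an adjusted p under 0.05 in limma, with sums of 10.63 to 11.02 in germ-free and 10.87 to 11.28 in conventional mice. Of the 6 Paneth cell markers, which belong to crypt secretory cells too, 5 were called lower, as given above. The part of these cells in the Reg4 values was not tested.

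Reg1 (probe set 10539200, chromosome 6 of GRCm38 from 78425983 to 78428668) was below the array median in all 24 mice. Its values ranged from 3.57 to 4.42 in germ-free mice and from 3.56 to 4.19 in conventional mice, and the 6 groups overlapped from each to the next. The log2 fold change of germ-free over conventional mice was 0.29 with short-chain β2→1-fructan (95% confidence interval 0.023 to 0.56), 0.04 with long-chain β2→1-fructan (-0.23 to 0.31) and -0.01 on water (-0.28 to 0.25), and none was called. Without germ-free short-chain replicate 1 the first of these was 0.41 and was called. Reg2 and Reg3d, the other Reg genes of the cluster, were likewise below the array median in all 24 mice, and neither was called between germ-free and conventional mice. Pancreatic acinar markers, listed because Reg1 is known from that organ, were below the array median in all mice for 5 of 9 genes. Of these 9 only Rnase1 was called (log2 fold change -1.01), 4 had a negative change and the median log2 fold change was 0.05. The sums were 7.62 to 7.96 in germ-free and 8.07 to 8.49 in conventional mice. Rnase1 had the highest mean level of the 9, at 6.88, and weighs most in these sums, which therefore do not stand for the list as a whole.

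Few members were called after the fructans. In germ-free mice, 0 of 5 members were called after short-chain β2→1-fructan against water, where 0.579% of all genes were called, and 0 of 5 after long-chain β2→1-fructan, where 0.855% were called. In conventional mice, 1 of 5 was called after short-chain β2→1-fructan, where 0.409% of all genes were called, and 0 of 5 after long-chain β2→1-fructan, where 0.313% were called. Both fibers were compared with the same water mice. In these comparisons 0 of the 18820 genes passed an adjusted p under 0.05 in limma, with an intensity trend, a common prior or the intensity-based method of the study, and 3 passed with array weights in conventional mice given short-chain fructan, none of them one of the 5. An unadjusted p under 0.05 was found for 982 and 1067 genes after short-chain and long-chain fructan in conventional mice, and for 1075 and 1644 in germ-free mice. Between the fibers it was 684 in conventional and 2392 in germ-free mice, and for the differences between germ-free and conventional changes 1025 with short-chain and 704 with long-chain fructan. Without any difference a share of 0.05 of the 18820 genes would be expected to pass. The counts of 1644 and 2392, for long-chain fructan in germ-free mice, lay furthest above that share, and the others lay nearer to it or below it. A count of this kind does not tell which genes respond to a fiber.

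The called gene was Reg4 after short-chain β2→1-fructan in conventional mice. All 4 mice given this fiber, at 10.85 to 11.37, were above all 4 water mice, at 10.05 to 10.63 (1.45-fold, or 0.54 on the log2 scale with a standard error of 0.17, exact permutation p = 0.029, adjusted p = 0.843 in limma). The group means were 10.99 ± 0.25 after short-chain fructan and 10.46 ± 0.28 on water (SD, n = 4). This call was lost without conventional short-chain replicate 1, at 0.41, and without conventional water replicate 1, at 0.40. After long-chain β2→1-fructan 3 of 4 conventional mice were above all water mice, and the log2 fold change was 0.28 (95% confidence interval -0.06 to 0.63), or 0.51 and called without conventional long-chain replicate 2 and 0.15 without conventional water replicate 1. In germ-free mice the log2 fold change of Reg4 was 0.17 after short-chain (-0.17 to 0.51) and 0.29 after long-chain β2→1-fructan (-0.05 to 0.63). Of the 11 enteroendocrine markers 1 was called in conventional mice after each fiber, Tac1, at 0.45 with short-chain and 0.44 with long-chain β2→1-fructan. Of the 7 goblet cell markers 0 were called after either fiber. Of all genes 0.409% were called with short-chain and 0.313% with long-chain fructan in conventional mice.

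**Figure D3:**
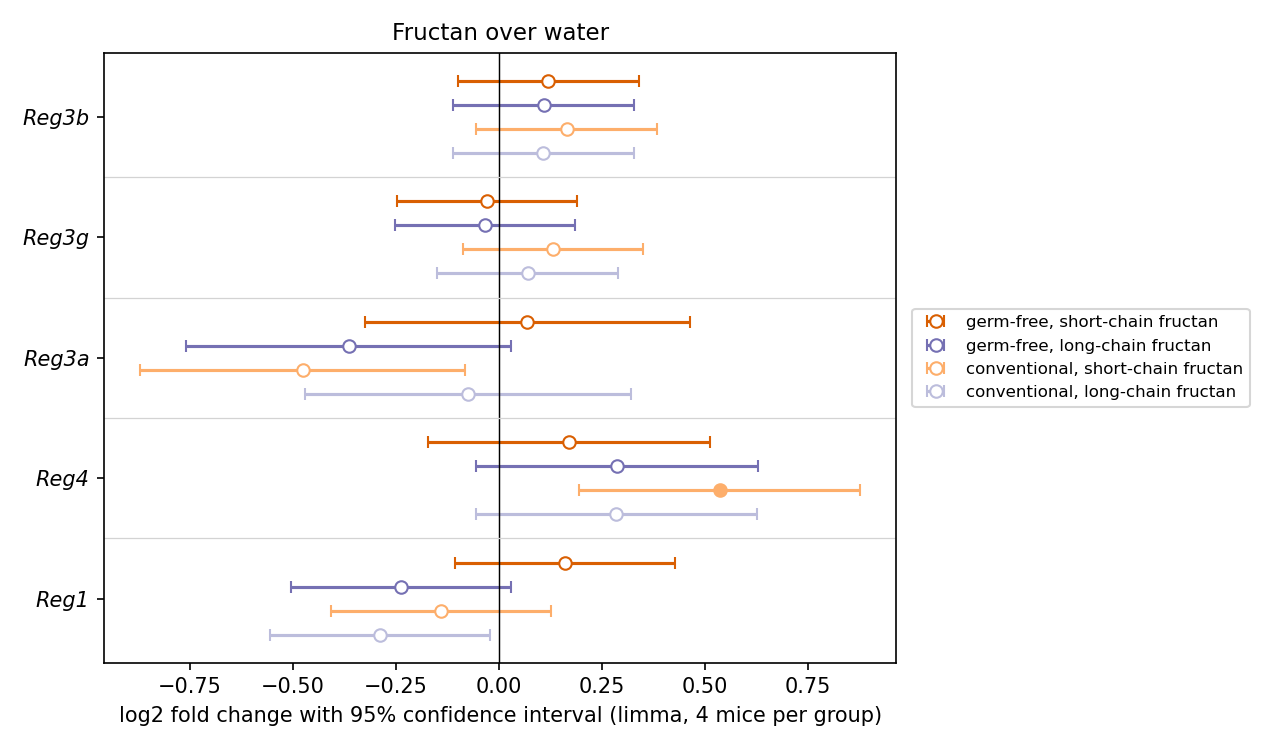
Log2 fold change of each β2→1-fructan over water in germ-free and conventional mice, with its 95% confidence interval from limma (4 mice per group, filled point, past the thresholds for p and fold change). Reg4 after short-chain β2→1-fructan in conventional mice, at 0.54, was the only one of the 20 changes that was called.

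Reg3b and Reg3g were called after neither fiber. The log2 fold change of Reg3g was -0.03 after short-chain (95% confidence interval -0.25 to 0.19) and -0.03 after long-chain β2→1-fructan (-0.25 to 0.18) in germ-free mice, and 0.13 (-0.09 to 0.35) and 0.07 (-0.15 to 0.29) after these fibers in conventional mice. That of Reg3b was 0.12 (-0.10 to 0.34) and 0.11 (-0.11 to 0.33) in germ-free mice, and 0.16 (-0.05 to 0.38) and 0.11 (-0.11 to 0.33) in conventional mice. All 8 intervals held 0, and their bounds lay between -0.25 and 0.38 on the log2 scale.

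Reg3a had wider intervals and was not called against water either. After short-chain β2→1-fructan in conventional mice 3 of 4 mice were below all water mice, and the log2 fold change was -0.48 (95% confidence interval -0.87 to -0.08, adjusted p = 0.91 in limma, exact permutation p = 0.11). Without conventional short-chain replicate 2, the highest of its group, this change was -0.64 and was called, and without replicate 1, the lowest, it was -0.21 and was not called. In germ-free mice the log2 fold change was 0.07 after short-chain (-0.33 to 0.46) and -0.37 after long-chain β2→1-fructan (-0.76 to 0.03), and in conventional mice it was -0.08 after long-chain β2→1-fructan (-0.47 to 0.32). The germ-free change after long-chain fructan was -0.24 without germ-free long-chain replicate 3 and -0.22 without germ-free water replicate 2.

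When the fibers were compared directly, long-chain over short-chain, 1 of 5 members was called in germ-free mice, where 1.41% of all genes were called, and 0 of 5 in conventional mice, where 0.213% were called. The called gene was Reg1, with 3.80, 3.57, 3.92 and 3.98 after long-chain and 3.87, 4.35, 4.23 and 4.42 after short-chain β2→1-fructan (1.32-fold lower, log2 fold change -0.40, adjusted p = 0.246 in limma, exact permutation p = 0.086). These groups overlapped, the gene was below the array median throughout, and the call was lost without short-chain replicate 2, 3 or 4 or without long-chain replicate 1 or 2, where the log2 fold change of Reg1 was -0.39 to -0.32. In the same comparison Reg3a was not called, at a log2 fold change of -0.43 (adjusted p = 0.346 in limma), although all 4 germ-free mice given long-chain fructan were below all 4 given short-chain fructan (exact permutation p = 0.029). In conventional mice Reg3a was at 0.40 (95% confidence interval 0.006 to 0.80), or 0.57 and called without conventional short-chain replicate 2, and 0.13 and not called without replicate 1. Reg4 had log2 fold changes of 0.12 in germ-free and -0.25 in conventional mice, the second of which was -0.02 without conventional long-chain replicate 2 and -0.12 without conventional short-chain replicate 1, and those of Reg3b and Reg3g were between -0.06 and -0.01.

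Whether a fiber acted differently in germ-free and conventional mice was tested as the difference between their changes. Of the 5 members 0 were called for short-chain β2→1-fructan, where 0.707% of all genes were called, and 0 for long-chain β2→1-fructan, where 0.531% were called. For Reg3a and short-chain fructan the difference was 0.55 on the log2 scale (unadjusted p = 0.0553 and adjusted p = 0.9 in limma), from changes of 0.07 in germ-free and -0.48 in conventional mice, and it was 0.28 without conventional short-chain replicate 1. For Reg4 and short-chain fructan the difference was -0.37 (-0.85 to 0.12), or -0.24 without conventional short-chain replicate 1 and -0.23 without conventional water replicate 1. With long-chain fructan it was -0.29 for Reg3a (-0.85 to 0.27), with -0.15 without germ-free water replicate 2, -0.16 without germ-free long-chain replicate 3 and -0.19 without conventional long-chain replicate 1, and 0.002 for Reg4 (-0.48 to 0.49).

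Among themselves, Reg3b and Reg3g varied together also within groups. Their log2 values correlated with r = 0.98 over the 24 arrays, and their deviations from the group means with r = 0.87. Reg3a had r = -0.85 with Reg3g over the arrays and r = 0.32 over the deviations, so that its inverse relation was one between germ-free and conventional mice and was not seen within groups. With Reg3b the values were -0.83 and 0.24. Reg4 had r = 0.63 with Reg3g over the arrays and 0.06 over the deviations. These correlations are descriptions over arrays that share normalization and, for the raw values, the gap between germ-free and conventional mice.

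**Figure D4:**
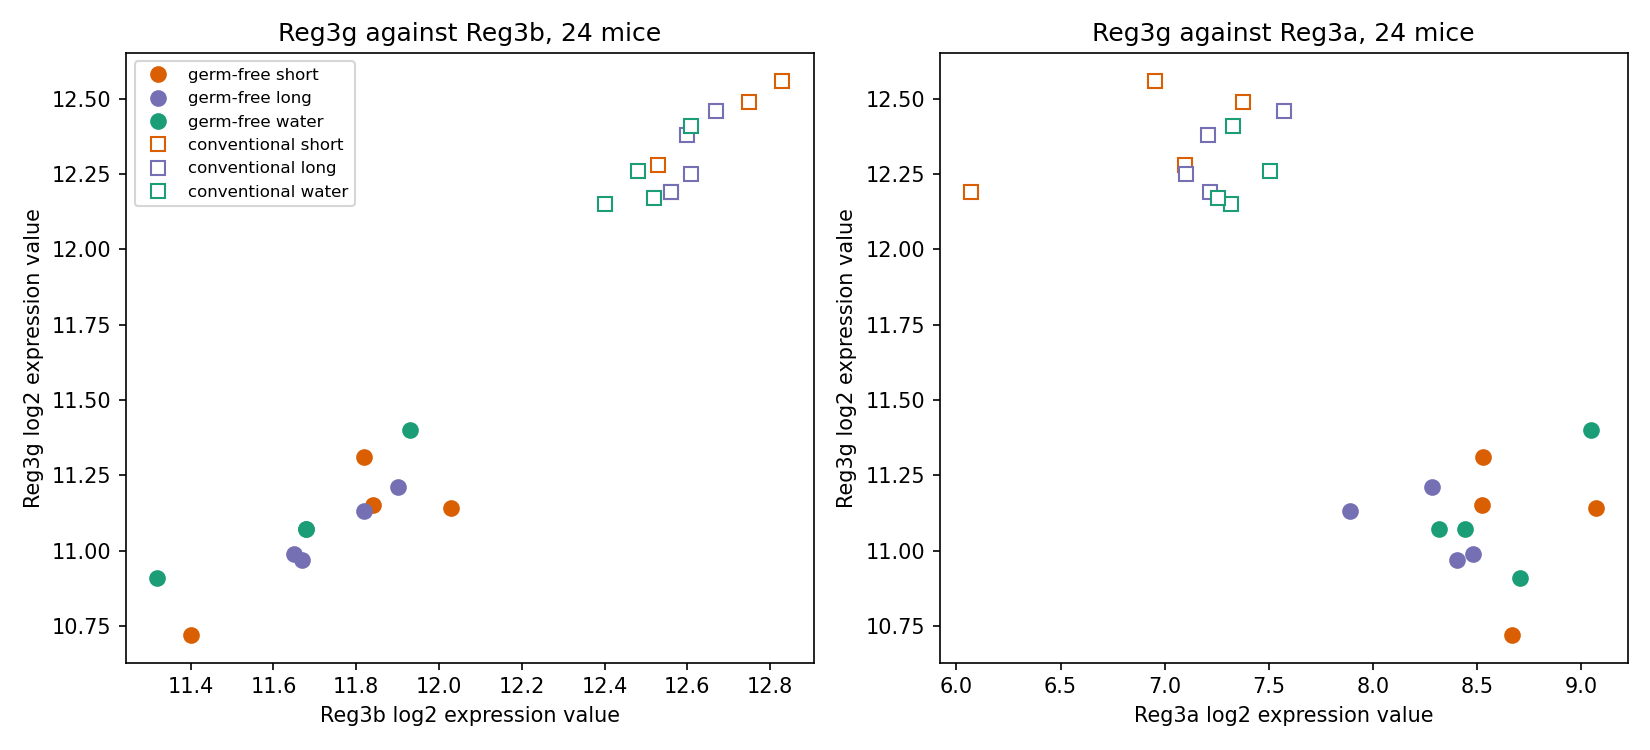
Log2 expression values of Reg3g against those of Reg3b and of Reg3a, 1 point per mouse (circles, germ-free, squares, conventional, colour, treatment). Reg3g and Reg3b fell along a line within and across groups (r = 0.98 over 24 arrays), whereas Reg3a and Reg3g formed separate clouds of germ-free and conventional mice. The axes do not start at 0.

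The genes most like each member over the 24 arrays were taken as the 5 with the highest Pearson correlation. For Reg3g they were Cyba (r = 0.98), a subunit of NADPH oxidases, Reg3b, the immunoglobulin heavy chain gene Ighg3 (0.96), Mal (0.96) and the MHC class II gene H2-Eb1 (0.96). For Reg3b they were Reg3g, Adamdec1 (0.96), Cyba (0.96), Pik3ap1 (0.96) and Jchain (0.94), the joining chain of secreted immunoglobulins. Reg3a was most like Ces1f (0.95), a carboxylesterase, the efflux transporter gene Abcg2 (0.94), Tkfc (0.94), a kinase of fructose breakdown, Cyp4b1 (0.94) and Tspan5 (0.94). All of these genes of Reg3a were higher in germ-free mice, by 0.43 to 1.49 on the log2 scale. This follows from their choice by correlation with Reg3a, which itself separated germ-free from conventional mice. Reg4 was most like Tspan1 (0.83), Trp53i11 (0.82), the carbonic anhydrase gene Car1 (0.81), Spink4 (0.80) and Gfra2 (0.80). Reg1 was most like Nup88 (0.84), Tmem115 (0.80), Bspry (0.79), Rab3gap1 (0.76) and Ern1 (0.75), none of which differed between germ-free and conventional mice at an adjusted p under 0.05 in limma. Over deviations from the group means the gene most like Reg3g was Reg3b and the reverse (0.87), followed for both by the cytokine gene Il17f (0.76 with Reg3g and 0.77 with Reg3b), which was below the array median in all mice, and the most like Reg3a was Guca2a (0.84), which encodes guanylin. The highest values for Reg1 and Reg4 were of similar size, Tmem115 (0.84) and Fbxo31 (0.78). The gene most opposite to Reg3b was Aldh18a1 (-0.83). Each is the extreme of all 18820 genes, so a value of this size does not by itself set Il17f apart.

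Other epithelial effectors that microbes are known to induce were set beside the Reg genes. Of 20 measured genes of this list 11 were called lower and 0 higher in the average of the treatments, where 8.2% of all genes were called. A negative change was found in 16 of the 20, and their median log2 fold change was -0.51 against 0.03 over all genes. The smallest p were those of Duoxa2 (log2 fold change -3.06) and Duox2 (-2.17), the maturation factor and the enzyme of epithelial hydrogen peroxide release, of Pigr (-0.59), the transporter of secreted immunoglobulin A, and of Lypd8 (-0.44), which keeps flagellated bacteria from the epithelium. None of the list had a change above 0.19, whereas that of Reg3a was 1.36. In conventional mice 3 of the 20 were called after short-chain β2→1-fructan, all higher, where 0.409% of all genes were called. These were the fucosyltransferase gene Fut2 (2.01-fold), Retnlb (2.19-fold), an antibacterial goblet cell protein, and Duox2 (1.49-fold). None passed adjustment, with adjusted p in limma of 0.268 for Fut2 and 0.843 for both Retnlb and Duox2. After long-chain β2→1-fructan 1 was called, Tifa (1.77-fold), an adaptor of NF-κB signalling, where 0.313% of all genes were called. With this fiber Fut2 was at 1.49-fold and just missed the call (unadjusted p = 0.0109 in limma), Duox2 was at 1.12-fold and Retnlb at 0.904-fold. Long-chain over short-chain, Retnlb was called (2.42-fold lower) and 1 other gene of the list was called higher, where 0.213% of all genes were called. Fut2 (unadjusted p = 0.0506 in limma) and Duox2 were not called. The difference between germ-free and conventional changes with short-chain fructan was called for Fut2 (-0.88) and Duox2 (-1.04), each at adjusted p = 0.9 in limma, where 0.707% of all genes were called. In germ-free mice 0 of the 20 were called after either fiber against water, where 0.579% of all genes were called with short-chain and 0.855% with long-chain fructan. Long-chain over short-chain, 1 of the 20 was called higher in germ-free mice, where 1.41% of all genes were called.

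**Figure D5:**
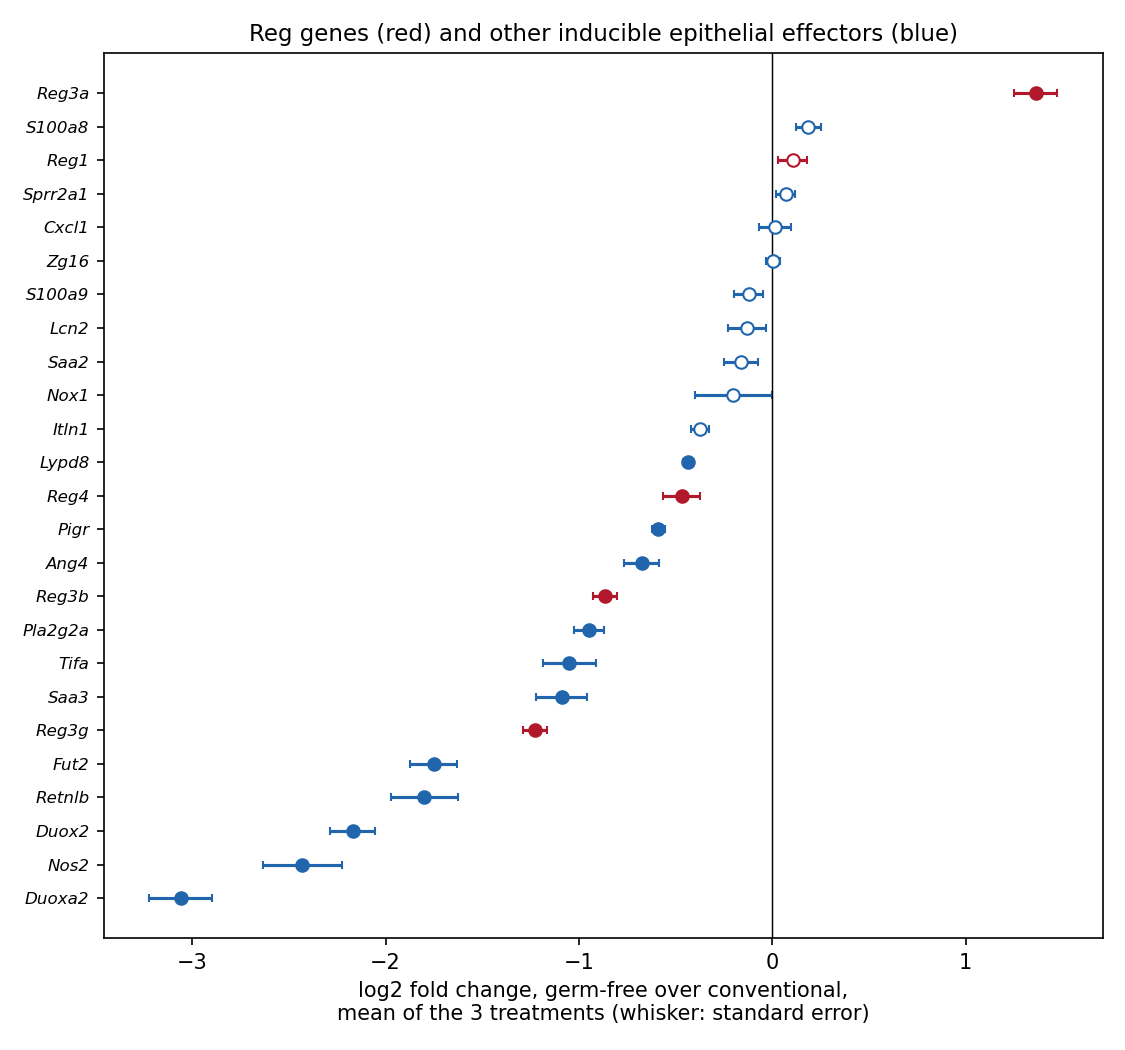
Log2 fold change of germ-free over conventional mice, averaged over the 3 treatments, for the 5 Reg genes (red) and 20 other inducible epithelial effectors (blue), with the standard error from limma as whisker. Filled points passed the thresholds for p and fold change: 11 of the 20 effectors were lower and 0 higher, and Reg3a, at 1.36, was the only gene of the plot that was higher and called.

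Genes of interleukin-22 signalling and microbial sensing were counted in the same way. Of 24 measured genes 3 were called lower and 0 higher in germ-free mice, where 8.2% of all genes were called. A negative change was found in 18 of the 24, and 11 had an adjusted p under 0.05 in limma, where 34% of all genes did. The median log2 fold change was -0.09 against 0.03 over all genes, and 7 of the 24 were below the array median in all mice. Socs3 (-1.08), a feedback inhibitor induced by Stat3, the interleukin-23 receptor gene Il23r (-0.70) and Il22ra2 (-0.48), which encodes a soluble decoy receptor of interleukin-22, were the genes called lower. Il23r and Il22ra2 were among the 7 genes below the array median in all mice, and Socs3 was not. Stat3 itself was at -0.26 (adjusted p = 2.36e-06 in limma), short of the fold threshold. Against water 0 of these 24 genes were called after either fiber in germ-free or in conventional mice. Of all genes 0.579% and 0.855% were called after short-chain and long-chain fructan in germ-free mice, and 0.409% and 0.313% in conventional mice.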

How the data were processed

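RNA of the terminal ileum of 24 mice was hybridised to 1 array each, and groups and replicate numbers came from the sample labels. The values are log2 expression values deposited by the authors, made with RMA (background correction, quantile normalization and summary per probe set). They carry the manufacturer's probe set numbers, whereas the methods name a remapped annotation. Of 35556 probe sets, 21218 had 1 gene symbol in the platform annotation, and for 1386 genes with several the set with the highest mean was kept, which left 18820 genes. Quantile normalization makes array medians alike, so that a shift of most genes would not be seen.

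Genes were fitted in R 4.3.3 with limma 3.58.1 (6 group means, 24 arrays, eBayes with trend, two-sided) and adjusted by Benjamini-Hochberg over all genes. The fit was tested on simulated data. The exact permutation test used all 35 divisions of 8 mice, with a smallest p of 0.029. Each array is 1 mouse. The number of arrays limits the precision.

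The members and gene lists were chosen with earlier results of these data known. The text names the members, Reg2 and Reg3d, the 5 genes most correlated with a member and up to 4 genes of a list with the smallest p in a comparison or the ones called where they were 5 or fewer. Alternatives were other variance priors, cyclic loess, array weights, averaged probe sets, leaving out dim genes or single mice, fits on the groups compared, an adjusted threshold and the replicate number as a block.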

Additional observations from a re-analysis of the deposited data

Results flagged for a closer look

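In 3 of 30 sets of 4 mice (5 genes in 6 groups), 1 mouse stood far from the other 3 by Dixon's criterion at the 95% level, where chance gives about 1.5, and all 3 concerned Reg4 in conventional mice. Replicate 1 after short-chain β2→1-fructan was high, at 11.37 against 10.85 to 10.91 in the other 3. Replicate 2 after long-chain β2→1-fructan was low, at 10.06 against 10.91 to 11.02. Replicate 1 on water was low, at 10.05 against 10.54 to 10.63.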

How the results depend on the processing

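The calls of Reg3a, Reg3b and Reg3g between germ-free and conventional mice under each treatment, and of Reg4 with short-chain β2→1-fructan and in the average, kept their direction and passed in every alternative run, single mice left out included. The fiber calls did not. At an adjusted p under 0.05 the members called were 0 for short-chain fructan over water in conventional mice and 0 for long-chain over short-chain fructan in germ-free mice, and this last count was also 0 without dim genes, where Reg1 is not tested. Without single mice the members called ranged from 0 to 2 for short-chain and from 0 to 1 for long-chain fructan over water in conventional mice, and from 0 to 1 for long-chain over short-chain fructan in germ-free as in conventional mice. On the arrays of the groups compared alone, the Reg1 call was lost and Reg3a was called at -0.43 for long-chain over short-chain fructan in germ-free mice.

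Signs turned only for uncalled changes near 0. After cyclic loess Reg3g was at 0.00587 for long-chain fructan over water and at 0.0202 for long-chain over short-chain fructan in germ-free mice, where Reg3b was at 0.0111. With array weights these last were 0.00869 for Reg3g and 0.00712 for Reg3b, Reg1 was at -0.00264 for germ-free over conventional mice on long-chain fructan, and the Reg4 interaction for long-chain fructan was -0.0931. Leaving out single mice gave, in germ-free mice, -0.136 to 0.0728 for Reg3b and -0.125 to 0.0704 for Reg3g (long-chain over short-chain), -0.105 to 0.0901 for Reg3g and -0.0563 to 0.209 for Reg3a (short-chain over water), and -0.102 to 0.0607 for Reg3g and -0.0015 to 0.199 for Reg3b (long-chain over water). For Reg1, germ-free over conventional, it gave -0.0344 to 0.122 with long-chain fructan and -0.112 to 0.0368 on water. For the interactions it gave -0.154 to 0.0800 for Reg3b (short-chain), and -0.109 to 0.0912 for Reg3b, -0.228 to 0.138 for Reg4 and -0.0225 to 0.151 for Reg1 (long-chain). The cause was not tested.

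Replicate numbers are not said to mark anything shared, and same-numbered mice of 15 pairs of groups had correlations of deviations between -0.137 and 0.182. With the replicate block all 60 member results kept their direction and their side of the threshold, with 4, 3 and 3 members called for germ-free over conventional mice on short-chain fructan, long-chain fructan and water. Without dim genes, 9410 genes were tested. Of these 13 to 73 were called in the 8 comparisons that involve a fructan, against 40 to 265 of all genes, and 1024 to 1161 were called between germ-free and conventional mice, against 1544 to 1823. The counts called over all genes also rested on single mice, as without germ-free water replicate 3, where 263 genes in place of 109 were called for short-chain and 271 in place of 161 for long-chain fructan over water in germ-free mice.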
